A study of Mus musculus with 6 samples.

Results

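Expression of 10 genes of the epithelial to mesenchymal transition was read in all 6 single-cell RNA libraries of a mouse embryonic stem cell series. They were Snai1, Snai2, Zeb1, Zeb2, Vim, Cdh2, Cdh11, Fn1, Vcan and Sparc, taken by gene symbol, and all 10 were found among the 31053 genes of the files. In this transition, cells that are joined in a polarised sheet lose their junctions and become migratory. Transcription factors of the Snail and Zeb families repress E-cadherin, which is encoded by Cdh1, while the cells gain N-cadherin, vimentin filaments and secreted matrix. In the embryo the transition carries epiblast cells through the primitive streak into mesoderm, and later frees cells from the somites and the neural crest. Several of these genes also serve outside the transition: N-cadherin and vimentin are made by neural progenitors, Zeb1 and Zeb2 act in the developing nervous system, and fibronectin and Sparc are laid into basement membranes under epithelia.

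The study followed Oct1 cKO and parental mouse embryonic stem cells (ESC) as they were driven towards mesoderm. Oct1 is a POU-domain transcription factor encoded by Pou2f1, and cKO stands for a conditional knockout. The groups were cKO ESC and parental ESC, which carry no differentiation day, then cKO and parental cells at day 3, then cKO and parental cells at day 6, with 1 library in each. Differentiation began on gelatin with 2 days of Bmp4 in N2B27 medium and went on for 4 days in a second medium, made with DMEM. To that were added Rspo3, an enhancer of Wnt signals, and LDN-193189, which blocks BMP receptors. Neither the allele, the Cre, nor the number of clones behind a library is stated in the labels.

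A barcode was read as a cell when it held 1000 genes or more and no more than 10% mitochondrial UMIs (unique molecular identifiers, each counting 1 captured molecule), which kept 7096 of 11046 barcodes. The libraries held 530 to 1650 such cells and 38935937 to 84128627 UMIs. Levels are given as CPM, the UMIs of a gene per 1000000 UMIs of all cells of the library, and a ratio is the log2 of cKO over parental CPM unless another is named. With 1 library in a group there is no replicate check and no test: the 95% intervals cover counting error only, and a 2-fold ratio, for genes that reach 5 CPM in one of the libraries, is used as a fixed size, not as a test. Pou2f1 was at 21.5, 12.6 and 16.04 CPM in cKO ESC, day 3 and day 6, against 30.1, 28.3 and 30.9 CPM in the parental libraries. It was 1.40-fold lower in cKO ESC, 2.24-fold lower in cKO cells at day 3 and 1.93-fold lower at day 6. Because each UMI marks the 5′ end of a transcript, a deletion further along the gene would not remove its reads. Pluripotency markers (8 genes, among them Nanog and Zfp42) summed to 6565 CPM in cKO ESC and 5933 CPM in parental ESC.

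RefSeq (GRCm38.p6) promoter windows of 300 bases, 250 before and 50 after the listed start, were at hand for 5 of the 10 genes: Snai1, Zeb2, Vim, Vcan and Sparc. Of these, 4 are shown, because Snai1 and Sparc hold the E-box CACCTG that Snail and Zeb proteins bind, and because Zeb2 and Vim were among the genes that were lower in cKO cells at day 6. Capitals mark the E-box, read on either strand, and the other bases are in lower case.
Snai1, chr2:167537945-167538244, plus strand: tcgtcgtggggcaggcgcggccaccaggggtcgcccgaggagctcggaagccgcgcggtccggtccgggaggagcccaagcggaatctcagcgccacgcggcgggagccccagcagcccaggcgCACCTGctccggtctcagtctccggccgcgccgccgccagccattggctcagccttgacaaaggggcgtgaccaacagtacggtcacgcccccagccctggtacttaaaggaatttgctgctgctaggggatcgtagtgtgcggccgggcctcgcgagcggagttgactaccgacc
Zeb2, chr2:45117393-45117692, minus strand: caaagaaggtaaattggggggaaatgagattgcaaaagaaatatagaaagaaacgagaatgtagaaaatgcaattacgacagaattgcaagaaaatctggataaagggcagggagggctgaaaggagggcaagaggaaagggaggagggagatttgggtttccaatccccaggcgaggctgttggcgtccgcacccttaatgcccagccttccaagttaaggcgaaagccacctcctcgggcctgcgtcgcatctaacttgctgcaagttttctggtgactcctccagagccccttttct
Vim, chr2:13574061-13574360, plus strand: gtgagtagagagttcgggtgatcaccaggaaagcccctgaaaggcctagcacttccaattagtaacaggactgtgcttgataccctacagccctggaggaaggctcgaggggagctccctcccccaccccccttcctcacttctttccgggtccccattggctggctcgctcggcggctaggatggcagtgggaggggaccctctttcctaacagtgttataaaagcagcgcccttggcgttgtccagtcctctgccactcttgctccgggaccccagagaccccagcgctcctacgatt
Sparc, chr11:55420031-55420330, minus strand: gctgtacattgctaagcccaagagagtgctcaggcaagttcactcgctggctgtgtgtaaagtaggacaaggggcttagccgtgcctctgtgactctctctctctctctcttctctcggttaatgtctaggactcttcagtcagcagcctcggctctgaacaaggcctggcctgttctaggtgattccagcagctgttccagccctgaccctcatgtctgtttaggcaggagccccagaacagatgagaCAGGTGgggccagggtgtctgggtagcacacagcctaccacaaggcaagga
With the first transcribed base counted as 0, the E-box of Snai1 ran from base −126 to −121 and that of Sparc, on the opposite strand, from −1 to 4. None of the windows of Zeb2 (4 listed starts), Vim or Vcan held the motif, and 20.2% of all 32851 promoter windows did. The octamer ATGCAAAT, the motif that gives Oct1 and its relatives their name, was in none of the 5 genes' windows and in 1.74% of all windows. A match in these letters is a description, not a bound site.

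All 10 genes were higher at day 6 than at day 3 in both genotypes, and the genotypes lay farther apart at day 6 than at day 3 for each of them. Between ESC and day 3 the genes did not share one course: Zeb2 was higher at day 3 in both genotypes and Cdh11 in cKO cells, and the others were lower. At day 6, Zeb1, Zeb2, Vim, Cdh2 and Cdh11 were at least 2-fold lower in cKO cells, 5 of the 10 genes, while Fn1, Vcan and Sparc were higher by less than 2-fold. In a library sum, fewer cells of a type and less RNA per cell cannot be told apart. Over all 10065 genes that reached 5 CPM, 6.76% were lower and 5.63% higher by that size, and the median ratio was −0.05, against −0.84 over the 10 genes. At day 3, none of the 6 genes with at least 5 CPM was past 2-fold in either direction, where 0.594% of all genes were lower and 0.258% higher. Snai1, Snai2, Zeb1 and Cdh11 were under 5 CPM in both libraries of that day. In ESC, 1 of 7 such genes was lower, Cdh11, and none was higher, where 2.66% of all genes were lower and 1.40% higher. Snai1, Snai2 and Zeb2 were under 5 CPM in both ESC libraries. The genes were not picked at random from the genome, so these shares are set side by side as a description.

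**Figure D1:**
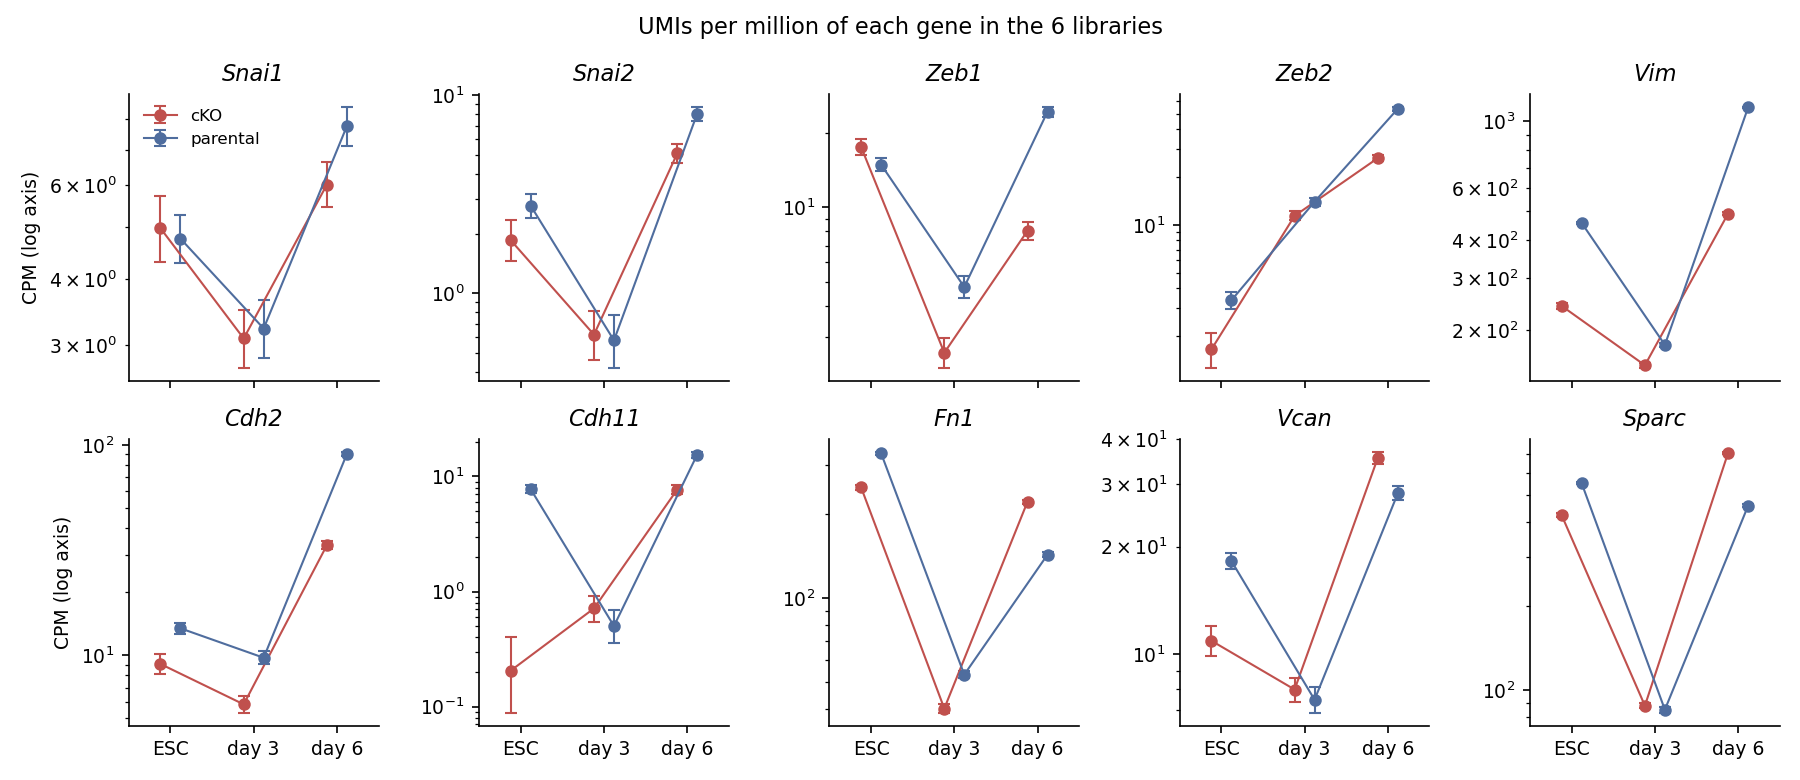
CPM of each gene (log axis, 1 scale per gene) in the cKO and parental libraries of ESC, day 3 and day 6; points are single libraries and bars are exact Poisson 95% intervals. Day 6 exceeds day 3 for every gene in both genotypes. Parental day 6 lies highest for Snai1, Snai2, Zeb1, Zeb2, Vim, Cdh2 and Cdh11.

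In the whole libraries, both Snail genes were lower in cKO cells at day 6, by less than 2-fold. Snai1 (ENSMUSG00000042821, chromosome 2, 167538195 to 167542814, mm10), which encodes Snail, a zinc-finger repressor of Cdh1 that is needed for gastrulation, was at 4.98, 3.09 and 6.02 CPM in cKO ESC, day 3 and day 6, against 4.76, 3.23 and 7.75 CPM in the parental libraries. The genotypes overlapped within counting error in ESC and at day 3. At day 6 Snai1 was lower in cKO cells by a log2 ratio of −0.37 (95% interval −0.55 to −0.18). Snai2 (ENSMUSG00000022676, chromosome 16, 14705852 to 14709385), which encodes Slug, the relative known for neural crest and sclerotome, was at 1.85, 0.618 and 5.07 CPM in the cKO series, against 2.76, 0.579 and 8.04 CPM in the parental one. It was the rarest of the transcripts at day 3 together with Cdh11, with 52 UMIs in the cKO library and 45 in the parental one. Its day 6 ratio was −0.67 (−0.86 to −0.47), so that neither Snail gene reached the 2-fold size between genotypes.

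The Zeb genes differed more. Zeb1 (ENSMUSG00000024238, on chromosome 18), which encodes a zinc-finger and homeodomain repressor of epithelial genes, was at 17.5, 2.59 and 8.04 CPM in cKO ESC, day 3 and day 6, against 14.9, 4.77 and 24.3 CPM in the parental libraries. It stood slightly higher in cKO ESC (ratio 0.24, 0.10 to 0.37) and 3.02-fold lower in cKO cells at day 6 (ratio −1.60, −1.74 to −1.46). Zeb2 (ENSMUSG00000026872, chromosome 2, 44983632 to 45117395), the relative that binds Smad proteins and acts in neural crest and neurons, was at 1.64, 11.4 and 26.4 CPM in the cKO series, against 3.35, 14.0 and 53.9 CPM in the parental one. Alone among the 10 genes, Zeb2 was higher at every later stage in both genotypes. Its day 6 ratio was −1.03 (−1.11 to −0.95). An antisense gene, Zeb2os, overlaps Zeb2 on the other strand, and the sources used here do not say whether counting used strand.

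The cadherins and the filament protein vimentin were lower in cKO cells at day 6. Cdh2 (ENSMUSG00000024304, on chromosome 18), which encodes N-cadherin, was at 9.07, 5.82 and 33.3 CPM in cKO ESC, day 3 and day 6, against 13.4, 9.71 and 90.6 CPM in the parental libraries. It was lower in cKO cells at all 3 stages, by ratios of −0.56 in ESC, −0.74 at day 3 and −1.44 (−1.51 to −1.37) at day 6. The ESC ratio turned to 0.28 without a fibroblast-like cluster of ESC (3 cKO and 124 parental cells). Cdh11 (ENSMUSG00000031673, chromosome 8, 102632095 to 102785642), a mesenchymal cadherin known from sclerotome and bone-forming cells, was at 0.206, 0.713 and 7.69 CPM in the cKO series, against 7.73, 0.501 and 15.45 CPM in the parental one. The cKO ESC value rests on 8 UMIs in 4 cells. Vim (ENSMUSG00000026728, chromosome 2, 13573927 to 13582826), which encodes the intermediate filament vimentin, was at 242, 153 and 492 CPM in the cKO series, against 458, 179 and 1113 CPM in the parental one. The day 6 ratios were −1.18 (−1.20 to −1.16) for Vim and −1.01 (−1.16 to −0.85) for Cdh11. Cdh11 and Zeb2 lay close to the 2-fold size, and under TMM scaling, which sets libraries on the bulk of their genes, 3 genes were past it: Zeb1, Cdh2 and Vim. On that scale 559 of 9814 genes were lower and 606 higher.

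The matrix genes went the other way at day 6. Fn1 (ENSMUSG00000026193, chromosome 1, 71585520 to 71653200), which encodes fibronectin, was at 249, 40.2 and 221 CPM in cKO ESC, day 3 and day 6, against 329.5, 53.1 and 143 CPM in the parental libraries. Sparc (ENSMUSG00000018593, chromosome 11, 55394500 to 55423183), a collagen-binding matrix protein, was at 422, 88.2 and 707 CPM in the cKO series, against 550.0, 85.3 and 457 CPM in the parental one. Both were lower in cKO ESC, with ratios of −0.41 for Fn1 and −0.38 for Sparc, and higher in cKO cells at day 6, with ratios of 0.63 (0.59 to 0.67) for Fn1 and 0.63 (0.61 to 0.65) for Sparc. Vcan (ENSMUSG00000021614, chromosome 13, 89655312 to 89742509), which encodes the hyaluronan-binding proteoglycan versican, was at 10.9, 7.98 and 35.45 CPM in the cKO series, against 18.3, 7.47 and 28.2 CPM in the parental one. Its ratio was −0.74 (−0.90 to −0.58) in ESC and 0.33 (0.24 to 0.42) at day 6. Genes on the opposite strand overlap Fn1, Vcan and Cdh2 as well.

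**Figure D2:**
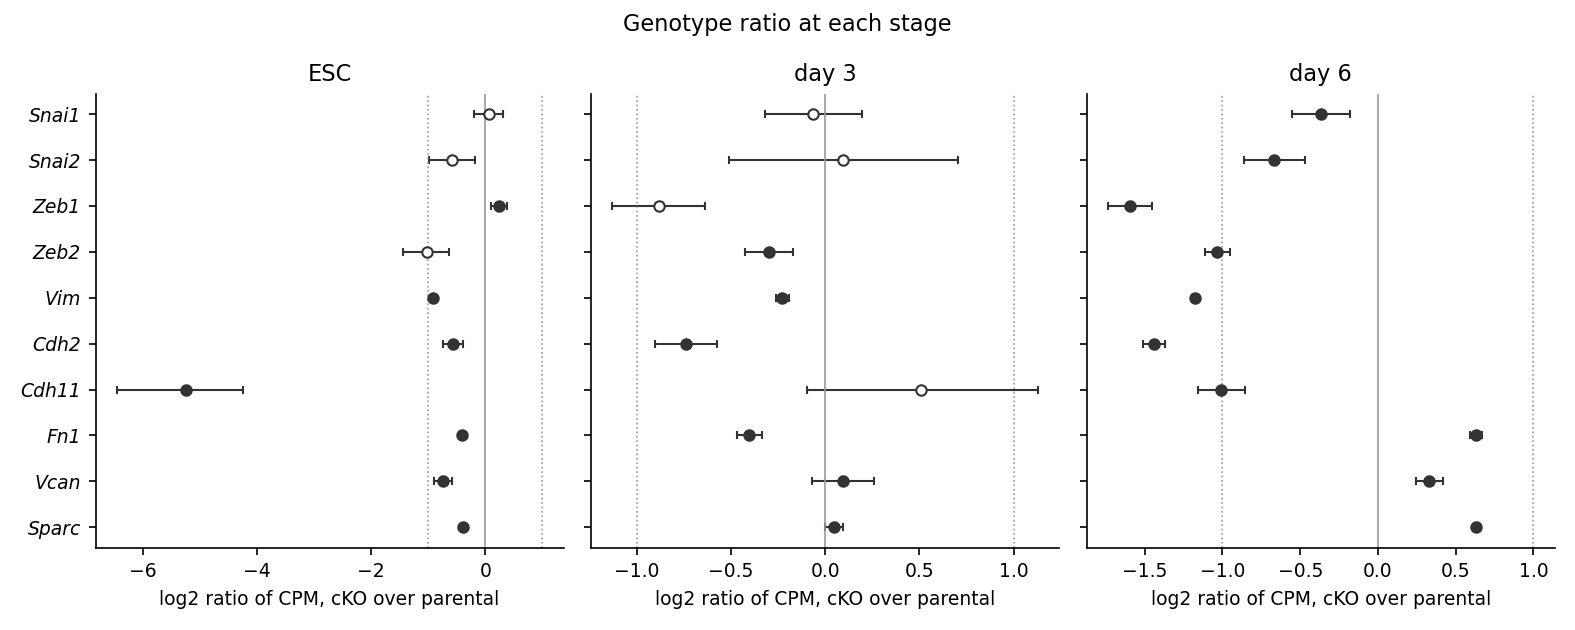
Log2 ratio of CPM, cKO over parental, for each gene in ESC, at day 3 and at day 6 (each panel has its own scale); points are 1 pair of libraries, bars are 95% counting intervals, dotted lines mark 2-fold, and open points are genes under 5 CPM in both libraries. At day 6, Zeb1 at −1.60 and Cdh2 at −1.44 lie farthest to the left, and Fn1 and Sparc at 0.63 farthest to the right.

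Set against ESC, day 3 held less of Zeb1, Fn1 and Sparc and more of Zeb2 in both genotypes. In cKO cells the 3 lower ones among 7 measured genes were at least 2-fold lower and Zeb2 was higher, 1 gene, where 13.1% of all genes were lower and 8.73% higher. In parental cells 6 of 8 were lower, which adds Vim, Cdh11 and Vcan, and again Zeb2 was higher, where 10.7% of all genes were lower and 7.56% higher. The day 3 over ESC ratio of Fn1 was −2.63 in both genotypes, that of Sparc was −2.26 in cKO cells and −2.69 in parental cells, and that of Zeb1 was −2.76 in cKO cells and −1.64 in parental cells. Zeb2 was 6.94-fold higher at day 3 in cKO cells and 4.18-fold higher in parental cells. The ESC titles carry another prefix than those of days 3 and 6, and what it stands for is not stated, so stage and any difference in preparation cannot be told apart in this step.

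From day 3 to day 6 the 10 genes were higher together. All 10 were at least 2-fold higher at day 6 in parental cells, where 18.3% of all genes were, and 9 of 10 in cKO cells, where 23.0% of all genes were. None was lower, where 5.41% of all genes were lower in parental cells and 7.72% in cKO cells. Snai1 in cKO cells was the gene short of that size, with a ratio of 0.96 (0.73 to 1.19). The largest ratios were those of Cdh11, at 3.43 in cKO cells and 4.95 in parental cells, followed in parental cells by Snai2 at 3.80 and Cdh2 at 3.22. The whole transcriptome leaned the same way on this scale: the median ratio of all genes was 0.26 in cKO cells and 0.22 in parental cells, and TMM scaling brought it to −0.03 in both. With TMM scaling the split of all genes past 2-fold was 1609 higher and 1242 lower in cKO cells, against 2266 and 759 without it, and 1333 higher and 812 lower in parental cells, against 1844 and 544. Under that scaling 7 of the 10 genes in cKO cells and 10 of 10 in parental cells were at least 2-fold higher at day 6 with at least 5 CPM. Of the 3 others in cKO cells, Snai1 and Zeb2 lay within 2-fold, and Snai2 was past 2-fold but under 5 CPM on that scale.

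The exchange of E-cadherin for N-cadherin is a classical sign of the transition. Both cadherins were read cell by cell, but no cell was followed through an exchange. Over whole libraries Cdh1 was at 55.5, 71.9 and 95.9 CPM in cKO ESC, day 3 and day 6, against 47.6, 64.4 and 33.95 CPM in the parental libraries. Each cell was thinned to 10000 UMIs so that depth did not set the share, which left out 558 cKO and 371 parental cells at day 6 that held fewer. In these thinned cells, 42.2% of 1092 cKO cells at day 6 held a UMI of Cdh1 and none of Cdh2, against 13.4% of 1175 parental cells, a difference of 28.8 percentage points (25.2 to 32.2). Conversely, 17.7% of the cKO cells held Cdh2 and no Cdh1, against 49.1% of the parental cells, a difference of −31.4 points (−35.0 to −27.7). Neural clusters, described below, held 67.6% of the parental Cdh2 UMIs at day 6, with 38.4% of parental and 1.64% of cKO cells. Cells with both were few, 3.02% of cKO and 1.79% of parental cells, and cells with neither made up 37.1% of cKO and 35.7% of parental cells. In ESC and at day 3 the genotypes lay closer: the Cdh1-only share was 41.7% in cKO ESC and 34.1% in parental ESC, and 47.6% in cKO cells and 39.6% in parental cells at day 3. In the same stages the Cdh2-only share stayed under 8%, at 5.21% in cKO ESC, 7.25% in parental ESC, 3.63% in cKO day 3 and 6.49% in parental day 3 cells.

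**Figure D3:**
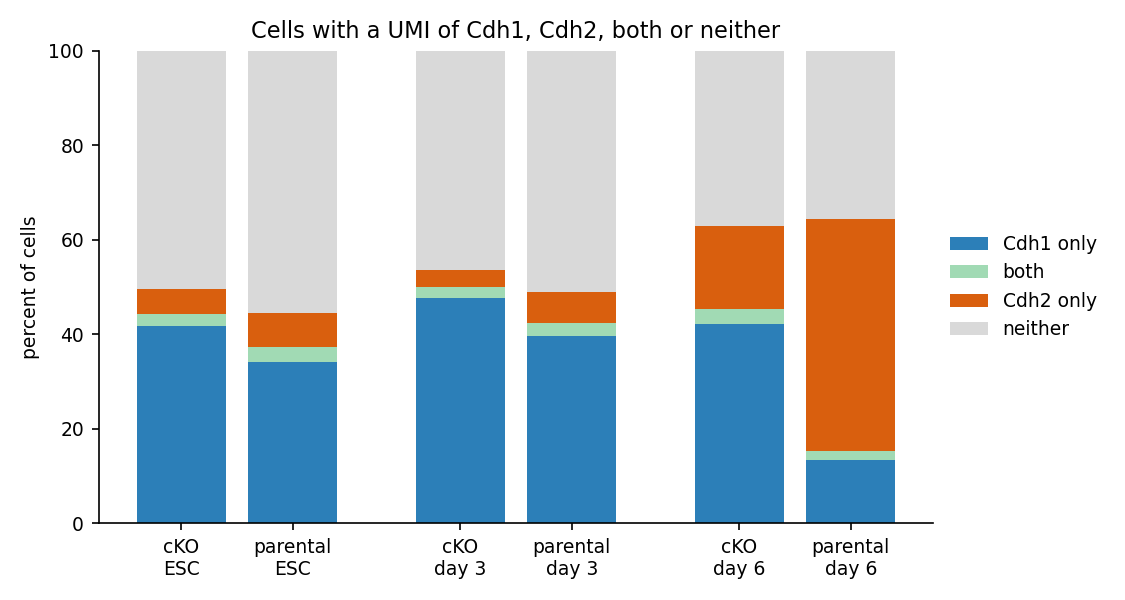
Share of cells (percent, each cell thinned to 10000 UMIs) with a UMI of Cdh1 only, both cadherins, Cdh2 only or neither, by library. The cKO and parental bars part at day 6, where Cdh2-only cells make up 17.7% of cKO and 49.1% of parental cells.

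Zeb1, Zeb2, Vim, Sparc and Fn1 were read in more or fewer day 6 cells in step with their CPM. In thinned cells, Zeb1 was found in 7.14% of cKO and 21.5% of parental cells, Zeb2 in 19.0% of cKO and 41.2% of parental cells, and Vim in 64.0% of cKO and 86.8% of parental cells. Sparc was found in 90.4% of cKO and 74.6% of parental cells, and Fn1 in 68.2% of cKO and 49.96% of parental cells. The scarcer Snai2 was found in 3.30% of cKO and 5.70% of parental cells, and Cdh11 in 6.69% of cKO and 11.6% of parental cells. Vcan was found in 20.1% (17.80 to 22.65) of cKO and 17.4% (15.32 to 19.74) of parental cells. Snai1 was found in 7.42% (5.934 to 9.135) of cKO and 5.70% (4.446 to 7.185) of parental cells. The intervals of the genotypes overlapped for both genes. Without thinning both shares were lower in cKO cells, 25.3% against 31.95% for Vcan and 15.3% against 16.4% for Snai1. Snai1 also turned at 3000 UMIs per cell and Vcan at 20000, and neither turned at the other depth. Without thinning, Cdh2 was found in 27.2% of cKO and 59.2% of parental cells, with median depths of 30925 UMIs in cKO and 36219 UMIs in parental cells. Cdh2 was read in 5.86% of thinned cKO and 6.25% of thinned parental cells of the epithelium-like cluster led by Tmem54. Cdh1 was read in 1.69% of parental cells of a neural progenitor-like cluster. Free RNA can give a UMI in a cell that does not make the gene, and its part in these shares was not tested. Cells with 5 or more of the 10 genes made up 16.6% of cKO and 30.1% of parental cells at day 6, against 0.302% of cKO and 1.77% of parental cells at day 3.

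To see where the transcripts lay, the cells of each stage were clustered on both genotypes together with the 10 genes left out, and clusters were called by marker lists as "-like" classes. At day 6 the make-up of the libraries differed. The 2 surface epithelium-like clusters (led by Tmem54 and by Slc39a8) held 40.7% of cKO cells and 13.5% of parental cells. The 5 neural progenitor-like and neuron-like clusters held 27 of 1650 cKO cells, 1.64%, and 593 of 1546 parental cells, 38.4%. The somite-like cluster led by Meox1 held 200 cKO cells, 12.1%, and 216 parental cells, 14.0%. Surface epithelium markers summed to 6085 CPM in the cKO and 2314 CPM in the parental library, and neural progenitor markers to 84.2 CPM in the cKO and 1186 CPM in the parental library. Clusters of low depth, 3 in all with medians of 3479 to 4873 UMIs per cell, held 589 cKO and 304 parental cells. The low-depth cluster of 126 cKO and 184 parental cells was also somite-like, with 3 somite markers. One of the neural progenitor-like clusters, led by Hoxb9, held as many neuron as progenitor markers above 2-fold, 6 of 8 each.

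Zeb1, Zeb2 and Cdh2 were high in neural cells: in the parental neural clusters they were at 36.6, 79.2 and 147 CPM, and in the parental epithelium-like clusters at 2.10, 11.9 and 11.2 CPM. These neural clusters held 62.8% of all parental Zeb1 UMIs, 61.3% of Zeb2, 67.6% of Cdh2 and 49.5% of Vim, with 41.7% of the library's UMIs. The neuron-like cluster led by Nhlh2 had the highest Zeb1 level, 122 CPM in 81 parental cells, and no Snai1 UMI was counted there, which allows up to 1.97 CPM of Snai1.

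Snai1, Snai2 and Cdh11 were highest in the somite-like cluster led by Meox1. In the cluster led by Meox1, Snai1 was at 15.7 CPM in cKO and 20.9 CPM in parental cells, Snai2 at 14.0 CPM in cKO and 21.3 CPM in parental cells, and Cdh11 at 34.85 CPM in cKO and 44.9 CPM in parental cells. The presomitic and streak-like cluster led by Pomc came next for Snai1, at 13.2 CPM in cKO and 20.5 CPM in parental cells. In the low-depth somite-like cluster, parental levels were 6.89 CPM for Snai1, 2.58 CPM for Snai2 and 2.58 CPM for Cdh11, from 8, 3 and 3 UMIs. The cKO levels there were 10.3, 8.20 and 11.3 CPM, from 10, 8 and 11 UMIs. The cluster led by Meox1 held 74.9% of all cKO and 52.8% of all parental Cdh11 UMIs at day 6, and 16.5% of all cKO and 18.2% of all parental UMIs. Vim peaked in the cluster with smooth muscle and mesenchyme markers led by Crct1, Actc1 and Nppa, at 3242 CPM in 40 cKO cells and 4073 CPM in 85 parental cells. Among cKO cells Cdh2 was highest in the presomitic and streak-like cluster led by Pomc, Car3 and T, which also held Shh, known from the notochord, among its 10 leading genes. It was at 216 CPM in 79 cKO cells and 126 CPM in 25 parental cells of that cluster.

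Fn1 and Sparc were abundant in epithelium-like cells. In the 2 epithelium-like clusters together, Sparc was at 847 CPM in cKO and 869 CPM in parental cells, and Fn1 at 235 CPM in cKO and 205 CPM in parental cells. They held 79.6% of all cKO Sparc UMIs and 70.6% of all cKO Fn1 UMIs at day 6, against 39.3% of parental Sparc and 29.75% of parental Fn1 UMIs. In the same clusters Cdh1 was at 133 CPM in cKO and 128 CPM in parental cells. Within these clusters the ratios of Fn1 and Sparc were thus smaller than over the whole libraries.

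**Figure D4:**
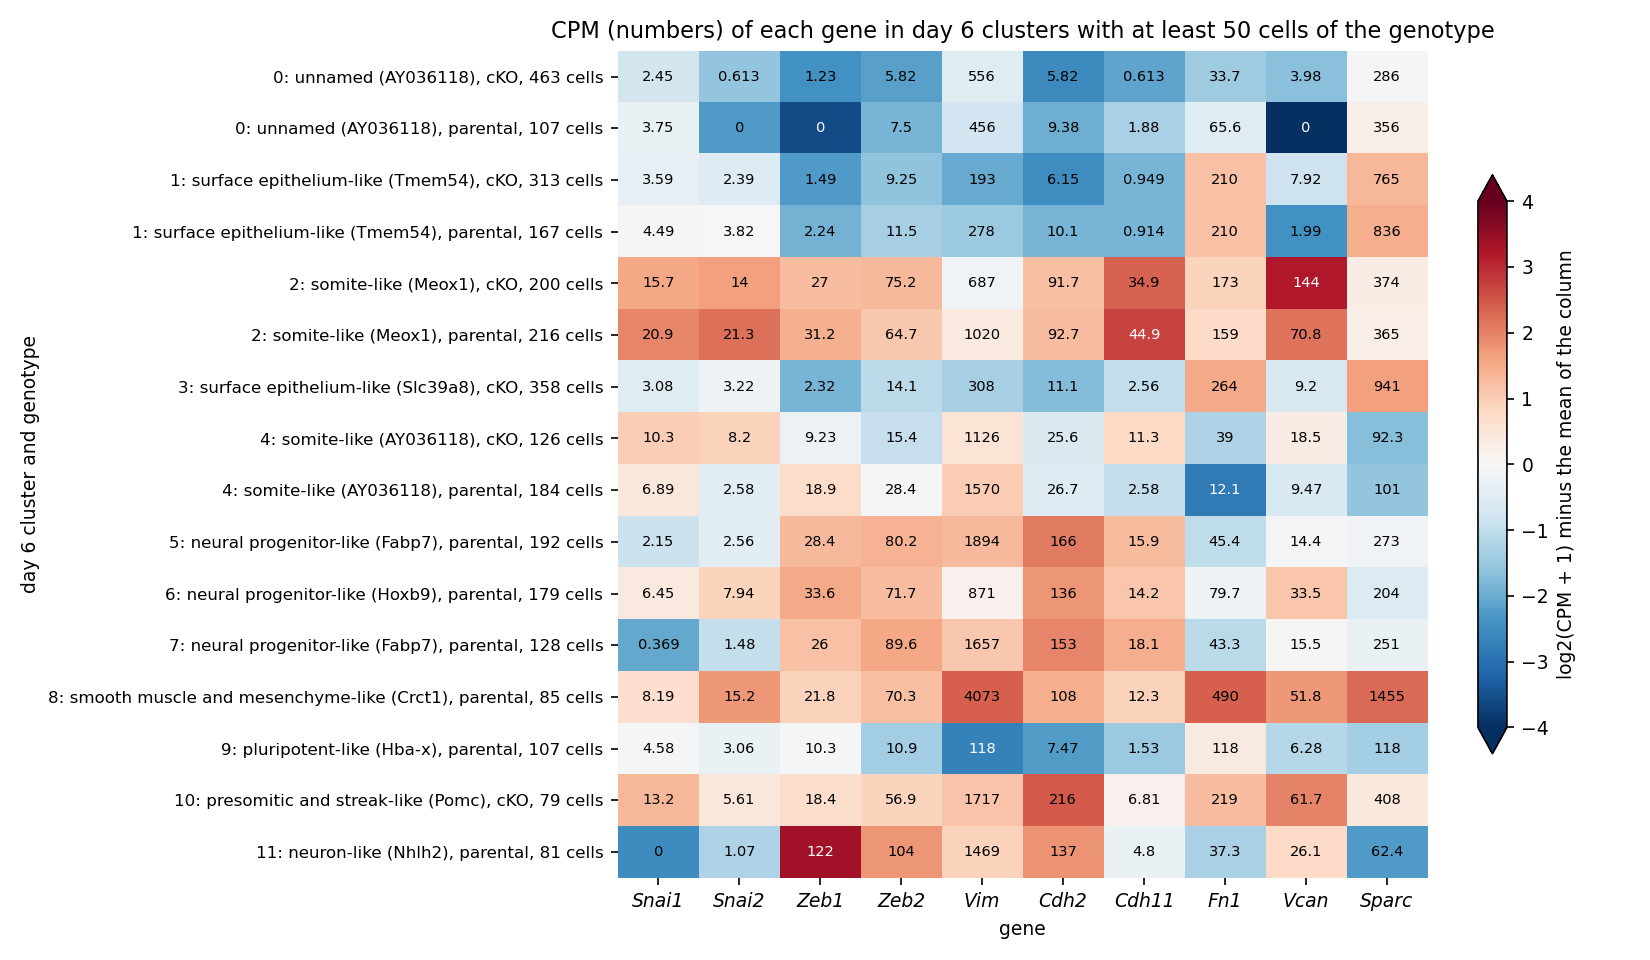
CPM of the 10 genes (numbers) in day 6 clusters by genotype, for clusters with at least 50 cells of that genotype; colour is log2(CPM + 1) minus the mean of the gene's column. Zeb1, Zeb2 and Cdh2 are high in the somite-like cluster led by Meox1 and in the neural clusters, and Fn1 and Sparc are also high in the epithelium-like clusters.

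The genotype ratios of the whole day 6 libraries moved when classes were left out, a comparison chosen after the clusters had been seen. Without the 5 neural clusters, Cdh2 was at 32.4 CPM in cKO and 50.4 CPM in parental cells, a ratio of −0.64 (−0.73 to −0.55), and Zeb2 was at −0.52, Fn1 at 0.14 and Sparc at 0.19. Zeb1 at −1.03, Cdh11 at −1.06 and Snai2 at −1.02 were then the 3 genes at least 2-fold lower, and 299 of 9807 genes were lower and 301 higher. Without the 2 epithelium-like clusters, Zeb1 was at −0.57, Cdh2 at −0.43, Vim at −0.45, Zeb2 at −0.22 and Cdh11 at 0.02, none past 2-fold, while Vcan was at 1.34 (1.25 to 1.43), where 452 of 9968 genes were lower and 366 higher. The median ratio of all genes was 0.00 in the first case and −0.05 in the second.

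Within the somite-like cluster led by Meox1, which held 7 of 8 somite markers, 9 of the 10 genes lay within 2-fold between genotypes. Cdh2 was at 91.7 CPM in cKO and 92.7 CPM in parental cells (ratio −0.02, −0.14 to 0.11), Sparc at 374 CPM in cKO and 365 CPM in parental cells (0.04, −0.02 to 0.10), and Zeb1 at 27.0 CPM in cKO and 31.2 CPM in parental cells (−0.21, −0.43 to 0.01). Vim, at 687 CPM in cKO and 1020 CPM in parental cells, had a ratio of −0.57, and Snai2 one of −0.60 (−0.90 to −0.31). Vcan was the gene past 2-fold, higher in cKO cells, where 2.96% of 9670 genes in this cluster were higher and 2.03% lower by that size. It was at 144 CPM in cKO and 70.8 CPM in parental cells, a ratio of 1.03 (0.91 to 1.15), and was read in 65.0% of 183 thinned cKO cells and 40.8% of 206 thinned parental cells. In the epithelium-like cluster led by Tmem54, too, Vcan was higher in cKO cells, at 7.92 CPM against 1.99 CPM in parental cells, where 1.58% of 9541 genes were higher by 2-fold and 2.40% lower. Cdh2 (−0.72, −1.08 to −0.36), Snai2 (−0.67, −1.26 to −0.08) and Vim (−0.53, −0.59 to −0.46) were lower in cKO cells of that cluster, within 2-fold. Fn1 was at −0.00 and Cdh11 at 0.06 (−1.04 to 1.24) there. With finer clusters, which kept 160 cKO and 45 parental somite-like cells, the Vcan ratio was 0.49, Vim turned to 0.38 and Zeb1 to 0.56. Cdh2 was then at 0.39 and Sparc at 0.41, and all 10 genes lay within 2-fold. Sparc was at −0.44 with coarser clusters (258 cKO and 268 parental cells) and at −0.335 with the 10 genes kept in the clustering, so its sign changed with the setting. At the finer resolution an unnamed cluster led by Tnc, Crct1 and Actc1, with 7 smooth muscle and mesenchyme and 6 somite markers, held 25 cKO and 195 parental cells. In the low-depth somite-like cluster the ratios rest on few UMIs. Fn1 was at 1.69 (0.78 to 2.69) from 38 cKO and 14 parental UMIs, Cdh11 at 2.13 (0.21 to 4.61) and Zeb1 at −1.04 (−2.34 to 0.14).

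E-cadherin was read in these somite-like cells more in the cKO library. Cdh1 was at 18.2 CPM in 200 cKO cells and 3.098 CPM in 216 parental cells, a ratio of 2.55 (2.05 to 3.09). Of the cKO cells 47 held a Cdh1 UMI, and 5 of them held 39.5% of the 205 UMIs. Over 19 listed epithelial genes, the level in cKO somite-like cells was 8.48% to 50.4% of that in cKO epithelium-like cells, with a median of 13.7%, and Cdh1 itself was at 13.7%. In the parental library the median was 2.21% and Cdh1 was at 2.41%. Epithelium-like cells were more frequent in the cKO library, the doublet caller marked only 1 barcode of that library, and the part of free RNA or mixed barcodes in this difference was not tested. In the cells without a Cdh1 UMI, 153 cKO and 198 parental, the Vcan ratio was 1.19 and that of Cdh2 was 0.03.

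**Figure D5:**
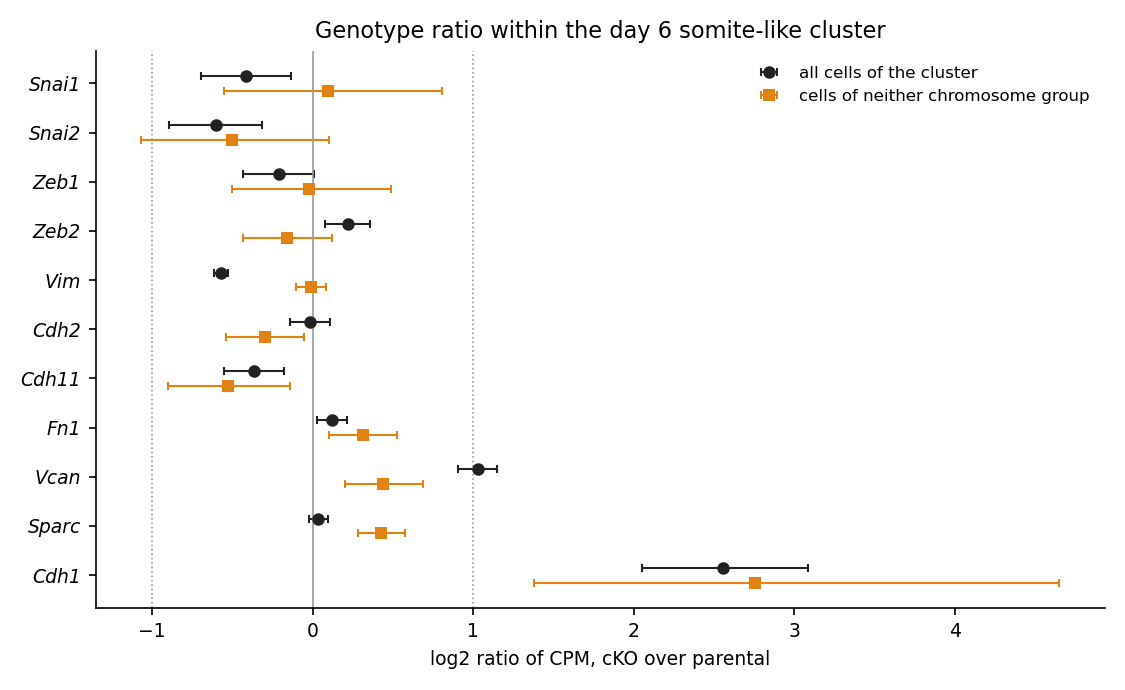
Log2 ratio of CPM, cKO over parental, for the 10 genes and Cdh1 within the day 6 somite-like cluster led by Meox1, for all of its cells (200 cKO, 216 parental) and for those of neither chromosome group (181 cKO, 31 parental); bars are 95% counting intervals and dotted lines mark 2-fold. Vcan moves to 0.44 and Vim to −0.01 in the second set, while Cdh1 is at 2.76.

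Parental cells were unlike the cKO cells in the balance of reads from some chromosomes, which touches 3 of the genes by position. Copies of chromosomes were not measured. Relative to the median cKO cell of a stage, cells were grouped by whether reads from chromosomes 1, 6 and 8 were high relative to chromosome 11, or the reverse. At day 6, 87.6% of cKO cells and 17.6% of parental cells were in neither group. Because the median cKO cell is the reference, the high cKO share is in part set by the method. Fn1 lies on chromosome 1, Cdh11 on 8 and Sparc on 11. Among parental day 6 cells, Sparc was at 554 CPM in cells with chromosome 11 high, 238 CPM in those with chromosomes 1, 6 and 8 high and 491 CPM in those of neither group. Fn1 was at 164 CPM in cells with chromosome 11 high, 90.2 CPM in those with chromosomes 1, 6 and 8 high and 155 CPM in those of neither group. The groups also differed in class: 180 of the 216 parental somite-like cells were in the group with chromosome 11 high and 5 in the other. In cells of neither group, the day 6 ratios were −1.73 for Zeb1, −1.498 for Cdh2, −1.14 for Zeb2, −0.97 for Cdh11 and −0.76 for Vim, and 0.54 for Fn1 and 0.55 for Sparc, so 3 genes were past 2-fold, where 624 of 10043 genes were lower and 337 higher. In somite-like cells of neither group, Vcan had a ratio of 0.44 (0.20 to 0.69), Vim one of −0.01 (−0.10 to 0.08) and Sparc one of 0.43 (0.28 to 0.58). The part of the chromosome balance in the Vcan, Vim and Sparc ratios was not tested further.

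In ESC, much of the genotype difference lay in 1 cluster. A fibroblast-like cluster led by Mgp, Thbs1 and Acta2, with 8 of 10 fibroblast and 8 of 10 smooth muscle and mesenchyme markers, held 3 of 530 cKO cells and 124 of 1396 parental cells. In its parental cells Vim was at 3193 CPM, Sparc at 2143 CPM, Fn1 at 1273 CPM and Cdh11 at 102 CPM. In the other parental ESC Vim was at 237 CPM, Sparc at 422 CPM, Fn1 at 253.5 CPM and Cdh11 at 0.180 CPM. It held 97.8% of the parental Cdh11 UMIs, 76.2% of those of Zeb2, 62.3% of those of Snai2 and 52.0% of those of Vim. Without this cluster the ESC ratios were −0.00 for Vim, −0.03 for Sparc, −0.05 for Fn1, 0.28 for Cdh2 and −0.51 (−0.68 to −0.35) for Vcan, and none of the 10 genes that reached 5 CPM was past 2-fold. Zeb2, under 5 CPM in both, turned to 0.75 without the cluster, against −1.03 with it. Fibroblast markers summed to 24.1 CPM in cKO ESC and 727.5 CPM in parental ESC, and Col3a1 and Lum were at 0 in cKO ESC. Where these cells came from was not tested. Without them, the parental day 3 over ESC ratio of Vim was −0.41 and that of Cdh11 was 1.48, and 3 genes were lower in place of 6. Over all genes, 835 of 9400 were lower without them, against 1023 of 9555 with them.

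Beside the 10, 5 lists of related genes were read by the same size. Of the 20 epithelial genes 19 had at least 5 CPM at day 6, and 18 were at least 2-fold higher in cKO cells and none lower, with a median ratio of 1.60, where 5.63% of all genes were higher and 6.76% lower. The epithelium-like clusters, with 40.7% of cKO and 13.5% of parental cells, moved with this list, and their part in it was not tested. The gene inside that size was Krt19, a keratin, with a ratio of 0.69. Krt19, Cdh1 and other genes of the list are also among the markers by which the epithelium-like clusters were named. Ocln, a tight-junction protein, was at 20.8 CPM in cKO and 5.23 CPM in parental cells. Dsp, the desmosome plaque protein desmoplakin, was at 119 CPM in cKO and 30.8 CPM in parental cells, and the claudin gene Cldn3 was at 213 CPM in cKO and 55.9 CPM in parental cells. Of the 12 measured other regulators, Snai3 (5.46 CPM in cKO, 1.60 CPM in parental cells) and Wwtr1, which encodes the Hippo co-activator TAZ (131 CPM in cKO, 52.4 CPM in parental cells), were higher, and Twist2 (1.82 CPM in cKO, 5.23 CPM in parental cells) was lower. Their median was −0.36.

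Of 17 mesenchymal matrix and contractile genes, 3 were lower and 2 higher at day 6, with a median of −0.51. The shares of all genes, 6.76% lower and 5.63% higher, stand beside this and the following counts. Col1a1, a fibrillar collagen chain, was at 22.5 CPM in cKO and 79.1 CPM in parental cells, Acta2, smooth muscle actin, at 286 CPM in cKO and 865.5 CPM in parental cells, and the collagen cross-linking enzyme gene Loxl2 at 28.6 CPM in cKO and 65.4 CPM in parental cells. The higher ones, named after their values were seen, were the tropomyosin gene Tpm1, at 2352 CPM in cKO and 1084 CPM in parental cells, and Mmp14, a membrane-bound matrix protease, at 59.2 CPM in cKO and 28.2 CPM in parental cells. Of 12 inputs of the TGF-beta pathway, the ligand gene Tgfb2 was higher, at 113 CPM in cKO and 47.7 CPM in parental cells, and 2 were lower. Ltbp1, which encodes a binding protein of the latent ligand, was at 2.49 CPM in cKO and 6.31 CPM in parental cells, and Tgfbi, a matrix protein induced by the pathway, at 17.4 CPM in cKO and 39.4 CPM in parental cells. The median over the list was 0.13. Of 14 partners of the 10 genes, 1 was past 2-fold: Jup, plakoglobin of the junctions, was at 54.1 CPM in cKO and 22.9 CPM in parental cells, a count near that share. The list's median was 0.35, and the integrin gene Itgav and the filament linker gene Plec followed Jup with ratios of 0.96 and 0.75.

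Across the day 6 clusters, the genes fell into a few patterns. The values compared were 16 sums of a cluster in 1 genotype with at least 50 cells. Of these 6 were cKO and 10 parental, from 2 libraries and of unequal depth. Nearest genes were sought among those that reached 20 CPM in at least 1 sum. Zeb2 and Cdh2 were each other's nearest gene, with a Pearson r of 0.97 on log2(CPM + 1). Jam3, a junctional adhesion molecule, came next for both at 0.95. Zeb1 and Zeb2 correlated at 0.91, Fn1 and Sparc at 0.80, and Snai1 and Snai2 at 0.76, while Snai1 and Zeb1 stood at −0.02. Cdh1 ran against Vim (−0.82), Zeb1 (−0.80), Cdh2 (−0.75) and Zeb2 (−0.74) and with Sparc (0.58) and Fn1 (0.56). The nearest gene was Ets1 for Snai1 (0.92), Oaf for Snai2 (0.90), Hoxa3 for Zeb1 (0.96), Plekho1 for Vim (0.91), S1pr3 for Cdh11 (0.90), Chst12 for Fn1 (0.96), Slc12a2 for Vcan (0.90) and Fndc3b for Sparc (0.93). These are descriptions over cluster sums that share libraries.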

How the data were processed

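Single-cell 5′ RNA libraries (10x Genomics) of 6 groups, 1 library each, were used. Counts are UMI counts per gene and barcode that the authors made with Cell Ranger 3.1.0 against mm10, per the file headers and the submitters' processing notes, and deposited without normalization. Strand use in counting is not given in the sources used here. Barcodes holding 1000 genes or more and no more than 10% mitochondrial UMIs were kept, 530 to 1650 per library, and any pair of libraries shared 0 to 2 barcode sequences. The kept UMIs per library, 38935937 to 84128627, set the counting error. Counts were summed per library or per cluster and scaled to CPM. Intervals of 95% are exact Poisson for CPM, exact conditional binomial for ratios, Clopper-Pearson for shares and Newcombe for their differences, with a floor of 3 counts where a library held none. They cover counting error only. Genes counted as past 2-fold reached 5 CPM in the higher library. No test was made, since a group holds 1 library, and the labels do not say what separate cultures a library stands for.

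Cells were clustered per stage on 2000 variable genes without the 10 genes, 30 principal components, 15 neighbours and Leiden resolution 0.8 (scanpy 1.11.5, leidenalg 0.10.2), and clusters were named by marker lists. No doublet filter belongs to the selection. Scrublet, run as an alternative, marked 30 of 7096 barcodes, too few for a working filter. Chromosome groups compared, per cell, the mean log2 share of UMIs of chromosomes 1, 6 and 8 with that of 11, relative to the median cKO cell, with limits of 0.25, and GENCODE vM21 positions matched 31011 of 31053 gene IDs. Promoters are RefSeq GRCm38.p6 windows. The genes, the lists and the tests were chosen with earlier results of these data known. Named beside the 10 are Pou2f1, up to 3 genes per list with the largest day 6 ratio, nearest genes over clusters and leading genes of clusters. Cdh1 was followed as the partner of Cdh2, and Col3a1, Lum, Nanog, Zfp42, Shh and Zeb2os were named after their values were seen. Alternatives were TMM factors (edgeR 4.0.16), median-of-ratios factors (DESeq2 1.42.0), equal weight per cell, stricter filters, other sizes and depths of thinning, other resolutions, and sets of cells left out. The ratios and their intervals were also read on day 6 counts simulated with counting error only. Such counts hold no spread between cultures or cells, so they cannot check for it. Python 3.11.15, numpy 2.4.6, pandas 2.3.3, scipy 1.17.1, matplotlib 3.10.9 and R 4.3.3 were used.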

Additional observations from a re-analysis of the deposited data

Results flagged for a closer look

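Between stages at which a gene reached 5 CPM in the higher library, 4 of the 10 genes had genotype ratios of opposite sign. These are log2 ratios, cKO over parental, with a gap of at least 1 between them. Each stage is 1 pair of libraries, and the difference was not tested. How many of all genes meet the same rule was not counted, so this count has no share beside it. The 5 CPM limit leaves out the day 3 ratios of Cdh11 and Zeb1. Cdh11 was at −5.23 in ESC, 0.51 (−0.10 to 1.13) at day 3 and −1.01 at day 6, and Zeb1 was at −0.88 at day 3. For Zeb1 the ratio was −1.60 at day 6, against 0.24 in ESC, a difference of −1.83. For Fn1 it was 0.63 at day 6, against −0.41 in ESC and −0.40 at day 3, differences of 1.04 and 1.03. For Vcan it was 0.33 at day 6, against −0.74 in ESC, a difference of 1.07, and for Sparc it was 0.63 at day 6, against −0.38 in ESC, a difference of 1.01. Without the fibroblast-like cluster the ESC ratios were 0.42 for Zeb1, −0.05 for Fn1, −0.51 for Vcan and −0.03 for Sparc.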

How the results depend on the processing

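No paired analysis was possible because each group holds 1 library. Genes counted as at least 2-fold lower in cKO cells at day 6, 5 as reported, were 3 with TMM factors, 3 with median-of-ratios factors, 3 in cells of neither chromosome group, 3 without the neural clusters, 3 without the low-UMI clusters and 0 without the surface epithelium-like clusters. The last 3 of these settings were chosen after seeing the data. Over all genes, 680 of 10065 were lower as reported, 559 of 9814 with TMM and 542 of 9812 with median-of-ratios factors. In cells of neither chromosome group 624 of 10043 were lower. The all-gene counts were 299 of 9807 without the neural, 675 of 10088 without the low-UMI and 452 of 9968 without the surface epithelium-like clusters. The count of higher genes at day 6, 0 as reported, was 1 without the surface epithelium-like clusters (Vcan) and 2 at 1.5-fold (Fn1 and Sparc). Of all genes, 567 of 10065 were higher as reported, 366 of 9968 without those clusters and 1253 of 10065 at 1.5-fold. In ESC the count of lower genes, 1 as reported, was 6 in cells of neither chromosome group, which hold 89 of the 124 parental fibroblast-like cells, 0 without the fibroblast-like cluster, 2 with equal weight per cell, 2 with no minimum CPM, 0 at 20 CPM and 3 at 1.5-fold. The all-gene counts moved too, from 245 of 9224 to 714 of 9521 in the first setting and 63 of 8992 in the second. They were 324 of 9314 with equal weight, 1621 of 17373 with no minimum CPM, 70 of 5340 at 20 CPM and 523 of 9224 at 1.5-fold. At day 3 the count of lower genes was 1 with equal weight per cell and 1 at 1.5-fold, where 0 is reported. Over all genes, 53 of 8917 were lower as reported, 79 of 9082 with equal weight and 301 of 8917 at 1.5-fold. From ESC to day 3 in cKO cells, the 1 higher gene became 2 with no minimum CPM and 0 at 20 CPM, and the 3 lower genes became 5 at 1.5-fold. Over all genes, 826 of 9458 were higher as reported, 2469 of 17153 with no minimum CPM and 390 of 5577 at 20 CPM. The lower ones were 1242 of 9458 as reported and 2126 of 9458 at 1.5-fold. In parental cells over the same step, the 6 lower genes became 3 without the fibroblast-like cluster and 3 at 20 CPM. The 1 higher gene became 0 at 20 CPM. Over all genes, 1023 of 9555 were lower as reported, 835 of 9400 without that cluster and 493 of 5615 at 20 CPM. The higher ones were 722 of 9555 as reported and 303 of 5615 at 20 CPM. The Cdh1-only difference at day 6 was 11.99 percentage points at 3000 UMIs per cell and 37.4 at 20000, and the Cdh2-only difference −11.0 at 3000 and −39.5 at 20000. Called ratios changed sign in 2 cases, both of Cdh11: 0.019 at day 6 without the surface epithelium-like clusters, and 1.48 for parental day 3 over ESC without the fibroblast-like cluster. Of 440 ratios of single genes under alternatives, 414 kept their sign, and of 65 in somite-like cells 48 did. At day 3 the split of all genes past 2-fold was 23 higher and 53 lower, and 33 and 36 with TMM factors. The causes of these shifts were not tested beyond what the settings themselves remove. Depth limits Snai2 and Cdh11 at day 3, with 39 to 60 UMIs per library.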

Other observations

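In ESC the lists of related genes differed between genotypes mainly in the mesenchymal matrix and contractile genes: 15 of 20 measured genes were at least 2-fold lower in cKO ESC and none higher, with a median log2 ratio of −3.01, against −0.01 over all genes, of which 2.66% were lower and 1.40% higher. The fibroblast-like cluster of 3 cKO and 124 parental cells moved with these genes, with fibroblast markers at 24.1 CPM in cKO and 727.5 CPM in parental ESC, and its part in the list was not tested; over all genes, 63 of 8992 were lower without it, against 245 of 9224 with it. Lox, a collagen cross-linking enzyme, had a ratio of −7.34, the collagen chain gene Col1a2 one of −5.40 and smooth muscle actin, Acta2, one of −5.19. Lox, Col1a2 and other genes of the list are also among the fibroblast markers by which the cluster was named. Of the 7 measured other regulators Prrx1, a homeobox gene of limb and craniofacial mesenchyme, was lower, at −5.31. Of the 13 epithelial genes measured in ESC, 2 were higher and none lower in cKO cells, with a median of 0.17: Cldn4, a claudin, was at 71.2 CPM in cKO and 28.4 CPM in parental ESC, and the keratin gene Krt8 at 211.0 CPM in cKO and 105 CPM in parental ESC. Of 12 measured TGF-beta inputs 4 were lower in cKO ESC, the ligand genes Tgfb3, Inhba and Tgfb2 with ratios of −4.73, −4.36 and −1.63, and Ltbp1 with −1.99. Of 13 partners 1 was lower, Plec, at −1.05. At day 3 the 5 lists held 5 other regulators, 17 epithelial, 10 matrix and contractile, 7 TGF-beta and 11 partner genes that reached 5 CPM, and 1 gene was past 2-fold, where 0.258% of all genes were higher and 0.594% lower: the epithelial gene Rab25, which encodes a vesicle-traffic protein, at 12.6 CPM in cKO and 6.16 CPM in parental cells. These list genes were named after their values were seen.

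In the surface epithelium-like ESC cluster led by Krt18, picked after the values were seen, Snai1 was higher in cKO cells. Its log2 ratio was 1.11 (0.26 to 2.05, counting error only), at 8.80 CPM in cKO and 4.06 CPM in parental cells, from 50 and 15 UMIs. Over all ESC it was at 4.98 CPM in cKO and 4.76 CPM in parental cells. In the same cluster Vcan was lower in cKO cells, at 5.63 CPM in cKO and 12.5 CPM in parental cells, a ratio of −1.15 (−1.85 to −0.46). The share of all genes past 2-fold in that cluster is not given here. In the ESC clusters led by Hist1h2ap and by Ripply3, Snai1 was at −0.51 (−1.38 to 0.42) and −0.28 (−1.09 to 0.59). Blood markers summed to 3.65 CPM in cKO and 335 CPM in parental cells at day 6, and pluripotency markers to 109 CPM in cKO and 359.5 CPM in parental cells, and a pluripotent-like cluster led by Hba-x held 11 cKO and 107 parental cells. That cluster also held 4 blood markers, and at the finer resolution there were a pluripotent-like cluster of 9 cKO and 55 parental cells and a blood-like cluster of 2 cKO and 50 parental cells.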
